A study of Mus musculus with 3 samples.

Results

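MYC and 37 genes of ribosome biogenesis were followed in follicular regulatory T (Tfr) cells sorted from mouse spleen, a kind of regulatory T cell that limits germinal centre responses. The genes were chosen by name: every probe set (a group of short probes read together as 1 value) that was annotated to a single gene symbol was taken where that symbol was among the 38. A probe set was found for 37 of the 38 genes, out of 12725 genes tested in all. They were read by 78 of the 45101 probe sets on the array. Npm3 was named by no probe set with a single symbol and has no value here.

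All cells came from mice of the C57BL/6 background at day 8 after immunization with ovalbumin (OVA), and they were sorted from lineage-depleted cells with antibodies to CD4, CD44, GITR, CD25 and CXCR5. The wild-type (WT) group was 1 array of RNA pooled from 4 mice. The Rptor-null group was 2 arrays, each of RNA pooled from 8 mice whose floxed Rptor gene (Rptor fl/fl) is removed by CD4-Cre, a Cre transgene that acts in the whole T cell lineage from the thymus onwards and not in Tfr cells alone. Both Rptor-null pools are labelled biological replicates. The ages of the mice and whether the WT mice carried the Cre transgene were not given in the sources used here.

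Rptor encodes Raptor, the subunit that brings substrates to mTOR complex 1 (mTORC1), a kinase complex that couples growth factor and nutrient signals to protein synthesis. The transcription factor MYC binds E-box sequences and is known as an activator of genes for ribosome production in growing cells, lymphocytes included. Ribosomes are assembled in the nucleolus: RNA polymerase I makes 1 long precursor of ribosomal RNA, small nucleolar ribonucleoproteins (snoRNPs) modify it, and assembly factors fold, cut and export the small and the large subunit separately.

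Of the 37 measured genes, 7 were lower in Rptor-null than in WT cells at an adjusted p under 0.05 in limma, none was higher, and 30 did not pass the test. The 7 were Nop16, Fbl, Gar1, Nhp2, Imp4, Wdr12 and Rrp12, each between 1.38-fold and 1.79-fold lower. They are 18.9% of the genes, against 11.1% of all 12725 genes called lower and 3.93% called higher in the same fit. At an unadjusted limma p under 0.05, 10 were lower and 0 higher. That threshold was not counted over all genes, so whether these counts are unusual is not known here. Each fold is converted back from a difference between means of log2(intensity + 16) and so understates the change of dim genes.

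The WT array lay above both Rptor-null arrays for 27 of the 37 genes (73.0%), against 48.7% of all genes. It lay below both for 1 gene, Polr1c, where 32.8% of all genes did, and between them for 9. The median difference of Rptor-null from WT was -0.23 on the log2 scale over the 37 genes, beside -0.06 over all genes. Taken array by array, the median was -0.20 for Rptor-null replicate 1 and -0.23 for replicate 2. Single differences ran from -0.84 for Nop16 to 0.11 for Polr1c, and 28 of the 37 lay below the median of all genes. Only Nop16 and Imp4 were at least 1.5-fold lower in both Rptor-null arrays, 5.41% of the genes beside 5.12% of all genes, and 0 were at least 2-fold lower.

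With 1 WT array the test has 1 residual degree of freedom, which comes from the Rptor-null pools, and it assumes that WT would vary like them. An exact permutation of 1 array against 2 cannot give a p below 0.333, so no single gene was tested that way. Because bulk RNA was measured, fewer cells of a type and less RNA per cell cannot be told apart.

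**Figure D1:**
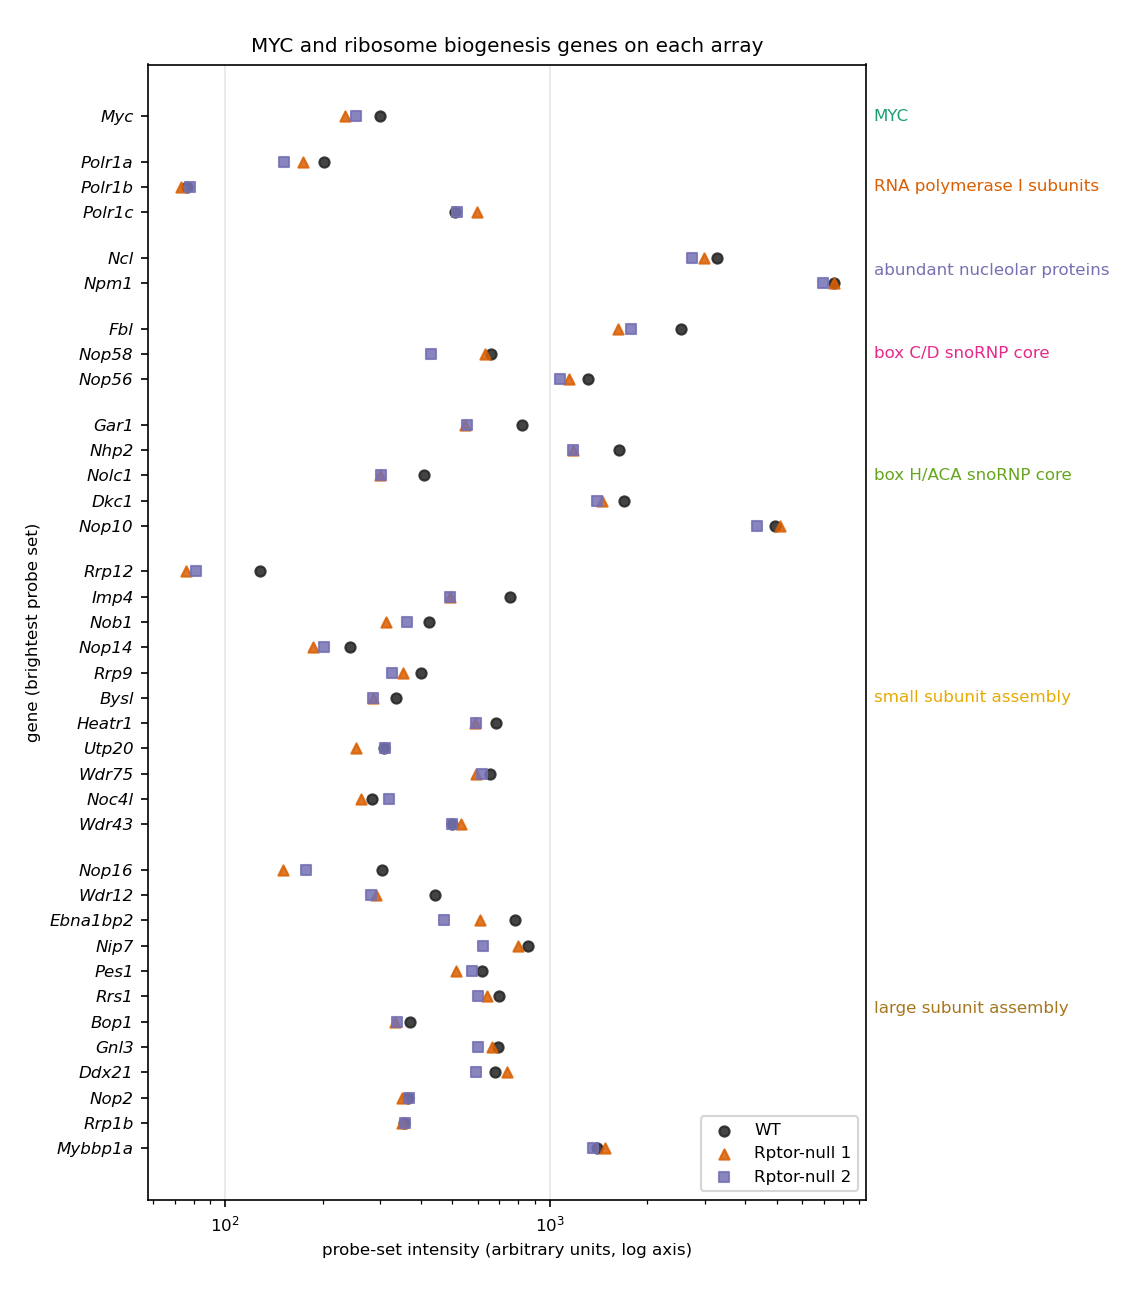
Intensity of each measured gene on the WT array and both Rptor-null arrays, on a log axis, with the genes grouped by role and 1 point for each array. The WT point lies to the right of both Rptor-null points for 27 of the 37 genes.

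Promoter windows were available from RefSeq (GRCm38.p6) for 32 of the genes, each holding 250 bases before and 50 after a gene's start. The motif searched was CACGTG, the canonical E-box that MYC with its partner MAX is known to bind. It is its own reverse complement, so 1 search covers both strands. It was found in 6 of the 32 genes (18.8%), beside 11.3% of the 10251 tested genes with a window, 8.09% of all 27025 genes with one and 7.15% of all 32851 windows of the same 300 bases. The 6 genes were Imp4, Nop2, Utp20, Pes1, Mybbp1a and Wdr43. A match is a description of letters in these windows and not a mapped binding site.

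The windows below show, with the motif in capitals, the gene with the lowest Rptor-null values relative to WT (Nop16, which has no match), the called gene that has a match (Imp4) and 2 uncalled genes that have one (Nop2 and Wdr43). They lie at chr13:54590025-54590324 on the minus strand for Nop16, at chr1:34439579-34439878 on the plus strand for Imp4, at chr6:125131633-125131932 on the plus strand for Nop2 and at chr17:71615965-71616264 on the plus strand for Wdr43. Each is written 5′ to 3′ on the gene's own strand.
Nop16: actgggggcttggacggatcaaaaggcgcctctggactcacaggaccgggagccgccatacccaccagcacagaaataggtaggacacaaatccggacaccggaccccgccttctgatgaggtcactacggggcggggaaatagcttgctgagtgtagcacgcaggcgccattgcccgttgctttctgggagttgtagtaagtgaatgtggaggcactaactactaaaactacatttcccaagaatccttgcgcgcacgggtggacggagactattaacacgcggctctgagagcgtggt
Imp4: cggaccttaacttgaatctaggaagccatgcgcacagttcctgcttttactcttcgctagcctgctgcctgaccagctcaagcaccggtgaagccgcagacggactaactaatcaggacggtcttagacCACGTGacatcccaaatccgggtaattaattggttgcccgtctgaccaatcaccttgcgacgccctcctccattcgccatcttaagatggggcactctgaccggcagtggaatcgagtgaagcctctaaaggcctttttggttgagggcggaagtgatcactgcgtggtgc
Nop2: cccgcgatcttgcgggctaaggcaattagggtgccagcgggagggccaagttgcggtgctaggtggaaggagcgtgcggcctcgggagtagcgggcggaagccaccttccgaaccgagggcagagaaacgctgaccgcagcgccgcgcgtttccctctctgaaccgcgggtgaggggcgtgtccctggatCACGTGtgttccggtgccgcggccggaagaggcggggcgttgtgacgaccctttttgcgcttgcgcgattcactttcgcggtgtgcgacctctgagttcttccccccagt
Wdr43: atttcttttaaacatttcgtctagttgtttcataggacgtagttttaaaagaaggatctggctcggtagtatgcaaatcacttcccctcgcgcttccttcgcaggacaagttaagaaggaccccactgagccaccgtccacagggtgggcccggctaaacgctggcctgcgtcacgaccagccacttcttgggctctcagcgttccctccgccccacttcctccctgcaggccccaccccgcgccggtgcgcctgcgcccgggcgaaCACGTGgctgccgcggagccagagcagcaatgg

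Counted from 1 at the window's 5′ end, the motif starts at base 130 in Imp4, at base 191 in Nop2 and at base 268 in Wdr43. Of the 5 called genes that have a window, 1 holds the motif. The median difference was -0.08 on the log2 scale over the 6 genes with a match and -0.24 over the 25 measured genes with a window and no match.

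Myc itself was read by 1 probe set. Its intensity was 299 in the WT array, against 235 and 253 in Rptor-null cells. Both Rptor-null values were below WT, as they were for 48.7% of all genes. The difference was -0.28 ± 0.14 (SE) on the log2 scale, 1.21-fold lower, with a limma adjusted p of 0.239 and a 95% confidence interval from -0.61 to 0.05, so it did not pass the test, and the interval holds both 0 and a decrease of the size seen in Fbl.

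For RNA polymerase I, none of the 3 subunits measured here passed the gene-level test, and the median difference was -0.01. Polr1a, the largest catalytic subunit, had an intensity of 202 in WT against 174 and 152 in Rptor-null. Its limma adjusted p was 0.285. Polr1b, the other catalytic subunit, had 76.2 in WT and 73.0 and 78.0 in Rptor-null, so WT lay between them.

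Polr1c, a subunit shared with RNA polymerase III, was read in opposite directions by its 2 probe sets. The brighter one, which stands for the gene, gave 512 in WT and 597 and 517 in Rptor-null. The other gave 482 in WT and 283 and 269.8 in Rptor-null, a difference of -0.77 that passed the limma test over every probe set (adjusted p = 0.0243). Without probe sets marked as matching more than 1 transcript, the gene would be read by that second probe set and would count as lower.

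Among the genes of abundant nucleolar proteins, neither Ncl nor Npm1 passed the test. Ncl encodes nucleolin, which binds pre-ribosomal RNA. Its brightest probe set gave 3271 in WT and 2993 and 2746 in Rptor-null, a difference of -0.19 with an adjusted p of 0.230. Of the 5 kept Ncl probe sets, the one with the largest difference (-0.74) gave 506 against 388 and 224. There the Rptor-null pools differed from each other more than replicate 1 differed from WT on the linear scale. The remaining Ncl probe sets differed by -0.27, -0.11 and -0.06, and none of the dimmer ones passed the test. Npm1 encodes nucleophosmin, a chaperone of ribosome assembly, and its brightest probe set gave 7499 in WT and 7488 and 6926 in Rptor-null. Its second probe set gave 7019 against 5204 and 3643, a difference of -0.69 whose adjusted p was 0.0712 in the fit of every probe set. The direction was the same on both Npm1 probe sets, and the sizes were not.

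The box C/D snoRNP guides methylation of ribosomal RNA, and the RNA of 1 of its 3 measured genes fell. Fbl encodes fibrillarin, the methyltransferase of the complex. Its brightest probe set (1416685_s_at) gave 2529 in WT and 1624 and 1780.5 in Rptor-null. Both Rptor-null pools lay well under WT, closer to each other than to it. The decrease was -0.57 ± 0.10 on the log2 scale, 1.48-fold, with a limma adjusted p of 0.0119, the lowest of the 37 genes. A second Fbl probe set gave 1793 in WT and 974 and 1087 in Rptor-null, and it was also called (difference -0.79, adjusted p = 0.0150 over every probe set).

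The scaffold proteins of the same complex did not pass. Nop56 had 1314 in WT and 1144 and 1077 in Rptor-null (adjusted p = 0.168). Nop58 had 657 in WT and 629.7 and 431 in Rptor-null (adjusted p = 0.339), so 1 pool was near WT and the other well below it.

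Box H/ACA snoRNPs turn uridines of ribosomal RNA into pseudouridine, and 2 of the 5 genes measured for them fell, Gar1 and Nhp2. Gar1, a core protein of the complex, had an intensity of 824 in WT and of 549 and 555 in Rptor-null (probe set 1418305_s_at). The Rptor-null pools nearly coincided below WT. The decrease was -0.56 ± 0.11, 1.48-fold, with a limma adjusted p of 0.0175.

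Nhp2, another core protein, had 1632 in WT and 1178 and 1177 in Rptor-null on its brightest probe set (1416606_s_at), again with coinciding pools below WT. The decrease was -0.46 ± 0.097, 1.38-fold, with a limma adjusted p of 0.0208. Its second probe set fell further, from 553 in WT to 250.0 and 243 in Rptor-null. That is a 2.17-fold decrease (adjusted p = 0.0113 over every probe set), the largest of any of the kept probe sets of these genes.

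The remaining H/ACA genes did not pass at the gene level. Dkc1, which encodes dyskerin, the pseudouridine synthase, had 1694 in WT and 1446 and 1396 in Rptor-null (adjusted p = 0.129). Its 3 probe sets spread over 0.93 on the log2 scale, from -0.53 to 0.40, the widest spread of any of these genes. Nop10, the smallest core protein, had 4928 in WT and 5129 and 4349 in Rptor-null on its brightest probe set, with WT between the pools. Its other probe set gave 1641 against 1119 and 1085 and was called lower (difference -0.57, adjusted p = 0.0253 over every probe set). Nolc1, a chaperone of snoRNPs also known as Nopp140, had 409 in WT and 301 and 303 in Rptor-null. Its limma adjusted p of 0.0736 missed the threshold.

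Factors of the small subunit were 11 of the 37 genes, and 2 of them fell, Imp4 and Rrp12. The median difference of the 11 was -0.23. Imp4, which belongs to the U3 snoRNP that directs the early cuts of the precursor, had 752 in WT and 492 and 494 in Rptor-null (probe set 1426213_at). Both pools sat together below WT. The decrease was -0.59 ± 0.11, 1.51-fold, with a limma adjusted p of 0.0161. A second Imp4 probe set was also lower in both pools, with 198 in WT and 145 and 142 in Rptor-null, without passing the test (adjusted p = 0.160 over every probe set). The other, dimmer one did not share that direction, with 89.3 in WT and 87.4 and 95.6 in Rptor-null. Rrp12, an export factor of pre-ribosomal particles, was read by 1 probe set (1434239_at) with 128 in WT and 75.7 and 81.0 in Rptor-null. Its decrease was -0.61 ± 0.16, 1.53-fold, with a limma adjusted p of 0.0415 among genes and 0.0750 in the fit of every probe set.

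The other 9 small subunit genes did not pass. Nob1, the endonuclease that makes the end of the mature 18S RNA, had 424 in WT and 312 and 364 in Rptor-null (difference -0.32, adjusted p = 0.192). Nop14, a factor of early 40S assembly, had 242 in WT and 186 and 201 in Rptor-null (difference -0.30, adjusted p = 0.231). Rrp9, a U3 snoRNP protein, had 400.3 in WT and 352 and 327 in Rptor-null. In each of these 3 genes WT was above both pools, as it was for 48.7% of all genes.

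Bysl, a late 40S assembly factor, had 337 in WT and 285 in both Rptor-null arrays, a difference of -0.23 with an adjusted p of 0.308. Heatr1, an early factor that also acts in transcription of the precursor, had 685 in WT and 588 and 594 in Rptor-null. On their brightest probe sets, the differences of both genes from WT were larger than those between the pools, and neither passed the test. The other Heatr1 probe sets had WT between the pools, with differences of -0.03 and -0.002.

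Wdr75, a factor of the early processome, had 656 in WT and 591 and 619.6 in Rptor-null. Utp20, a large scaffold of that processome, had 308 in WT and 253 and 309.8 in Rptor-null. Wdr43, a processome protein of the same stage, had 501 in WT and 534 and 499.6 in Rptor-null. Noc4l, a partner of Nop14, had 282 in WT and 263 and 319.6 in Rptor-null. For Utp20, Wdr43 and Noc4l, WT lay between the pools on the brightest probe set. The other Wdr75 probe set was higher in both pools, with 124 in WT and 132 and 144 in Rptor-null. The other Wdr43 probe set gave 412 in WT and 440 in both pools. The other 3 Noc4l probe sets were lower in both pools, by 0.36 to 0.47 on the log2 scale. None of these other probe sets passed the test.

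Factors of the large subunit were 12 of the 37 genes, with a median difference of -0.15, and 2 of them fell, Nop16 and Wdr12. Nop16, a 60S assembly factor known as a MYC target, was read by 1 kept probe set (1424620_at) with 305 in WT and 150.5 and 177 in Rptor-null. Both pools were far below WT. Its decrease of -0.84 ± 0.16, 1.79-fold, was the largest of the 37, with a limma adjusted p of 0.0159. Wdr12 works with Pes1 and Bop1 in the PeBoW complex, which matures the RNAs of the large subunit. It had 444 in WT and 292 and 281 in Rptor-null (probe set 1448646_at), a decrease of -0.61 ± 0.13, 1.52-fold, with a limma adjusted p of 0.0238.

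The other 2 PeBoW genes did not pass. Pes1 had 617 in WT and 515 and 576 in Rptor-null (difference -0.18, adjusted p = 0.402), and Bop1 had 371 in WT and 333 and 338 (difference -0.14, adjusted p = 0.531). On the brightest probe sets WT was above both pools for all 3 genes of the complex, as for 48.7% of all genes. The other kept probe set was lower in both pools for Wdr12 (76.1 in WT against 66.1 and 61.8). For Pes1 it was higher in both (40.7 against 41.5 and 46.5). For Bop1 it had WT between the pools (70.4 against 61.2 and 77.6). None of these other probe sets passed the test. Whether the decrease of Wdr12 differed from those of its partners was not tested.

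Ebna1bp2, an early 60S factor, had 780.1 in WT and 609 and 471 in Rptor-null, a difference of -0.53 whose adjusted p of 0.0674 missed the threshold. Nip7, a factor of 60S maturation, had 855 in WT and 797 and 624 in Rptor-null (difference -0.27, adjusted p = 0.286). Rrs1, which helps to build the 5S particle into the large subunit, had 699.5 in WT and 642 and 599.6 (adjusted p = 0.383). In all 3 genes replicate 2 was the lower pool.

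Gnl3, the nucleolar GTPase nucleostemin, had 691 in WT and 662 and 603 in Rptor-null (adjusted p = 0.537). Nop2, a methyltransferase of the 28S RNA, had 366 in WT and 349 and 369.5 in Rptor-null. Rrp1b, a nucleolar protein of 60S processing, had 356 in WT and 351 and 357. On their brightest probe sets these 3 genes differed from WT by -0.13 or less in size. The other Rrp1b probe sets differed by -0.30 and -0.17, below WT in both pools, without passing the test.

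Ddx21, an RNA helicase of the nucleolus, had 677 in WT and 739 and 593 in Rptor-null. Mybbp1a, a nucleolar protein that binds MYB, had 1398 in WT and 1475 and 1356. WT lay between the pools in both genes on the brightest probe set. The other probe set of each was lower in both pools without passing the test. It gave 356 in WT and 286 and 295 in Rptor-null for Ddx21, and 186 against 121 and 142 for Mybbp1a. Across the 37 genes, 4 differed by more than 0.3 on the log2 scale between the Rptor-null pools themselves.

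**Figure D2:**
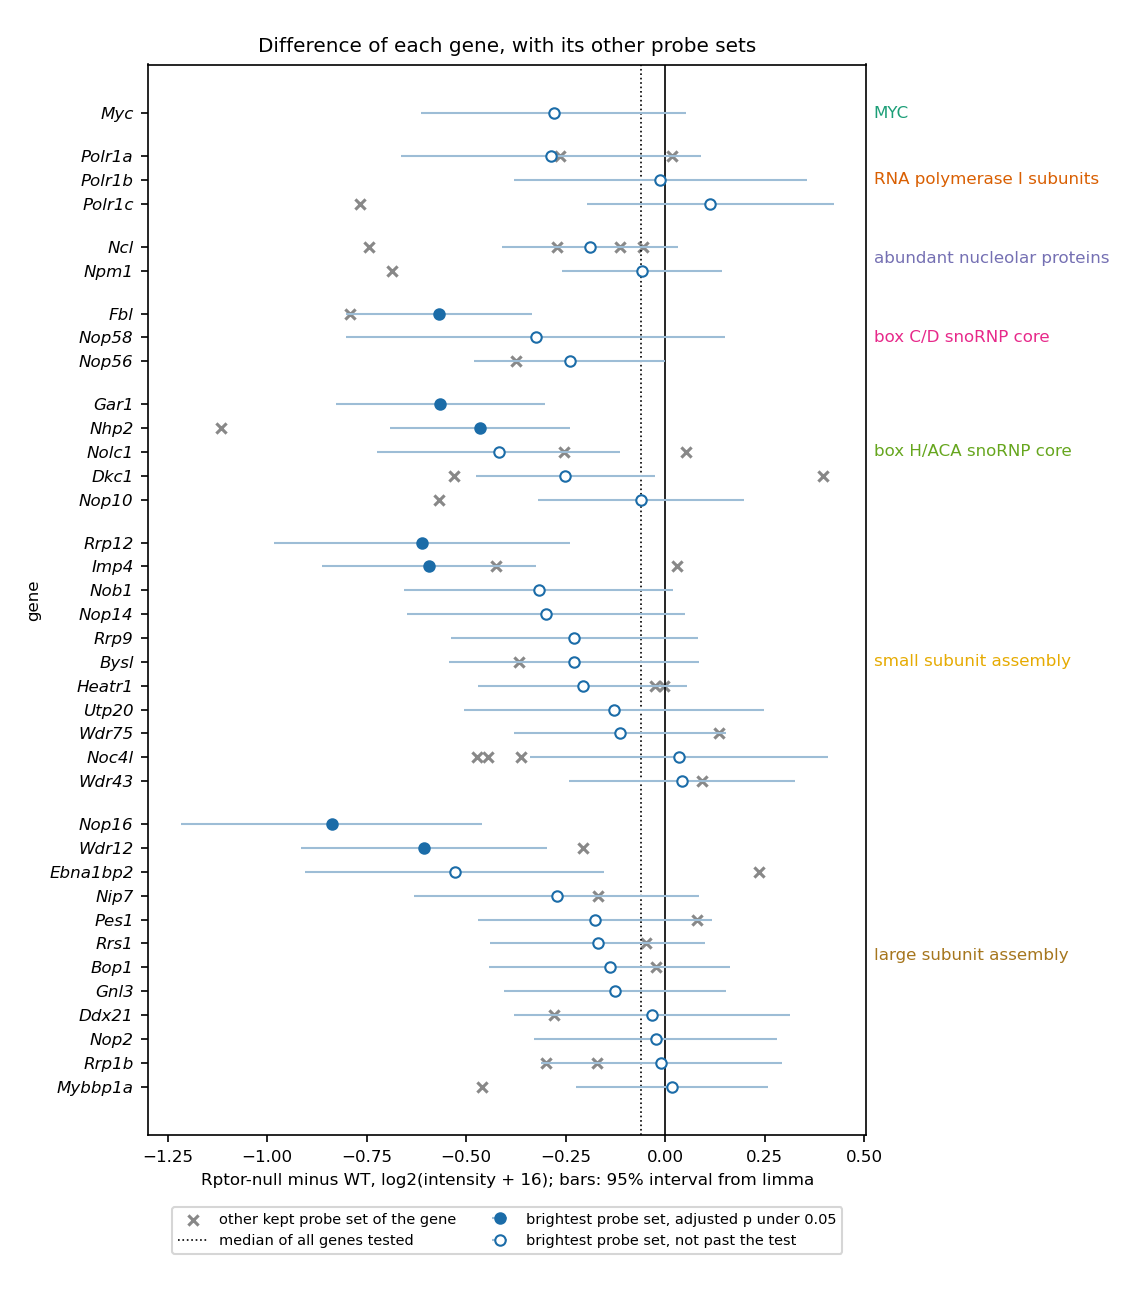
Difference of Rptor-null from WT for each gene on the log2 scale, with the brightest probe set as a circle (filled where called) and its 95% confidence interval as a bar, other kept probe sets as crosses, and the median of all genes as a dotted line. The 7 called genes lie between -0.84 and -0.46, and Myc's interval runs from -0.61 to 0.05.

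How far probe sets of 1 gene agreed was examined next, since the brightest one was taken to stand for each gene. Of the 78 probe sets, 73 were above the filter on dim values. When every one of these was fitted, 10 of the 73 were lower, in 8 genes, and 0 were higher, beside 6.04% of all 27022 probe sets called lower. The 8 genes were Fbl, Nhp2, Gar1, Imp4, Nop16, Wdr12, Nop10 and Polr1c, and Nop10 and Polr1c were called only on a probe set that is not their brightest. WT lay above both pools for 50 of the 73 probe sets, below both for 7 and between them for 16. That count was not made over all 27022 probe sets, so whether 50 of 73 is unusual is not known here. The median difference was -0.23 over the 73 probe sets and -0.03 over all kept ones.

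Of the 25 genes with at least 2 kept probe sets, 14 had all of them below WT on average, 1 (Wdr43) had all of them above, and 10 were mixed. Probe sets were thus on the same side of WT for 15 of the 25, and for 2871 of all 5641 genes with at least 2 (50.9%). The spread between probe sets of a gene had a median of 0.30 on the log2 scale. That is larger than the median difference from WT itself. After Dkc1, the widest spreads were those of Polr1c (0.88), Ebna1bp2 (0.76), Ncl (0.69) and Nhp2 (0.65).

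Bright genes were called more often than dim ones, which bears on how the 7 of 37 is read. Ordered by mean level into quintiles of 2545 genes, all tested genes were called lower in 1.38%, 4.79%, 10.3%, 16.9% and 22.0% of cases from the dimmest to the brightest quintile. The 37 genes fell as 0, 2, 10, 17 and 8 into these quintiles, and 0, 1, 1, 3 and 2 of them were called lower. In the third quintile the median difference was -0.25 for the 10 of them and -0.14 for all genes of that quintile. In the fourth, where 17 of them lie, it was -0.21 beside -0.15, and in the brightest it was -0.21 beside -0.12. Their called shares are near those of similarly bright genes, and their medians lie lower in each of these 3 quintiles, a difference that was not tested.

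**Figure D3:**
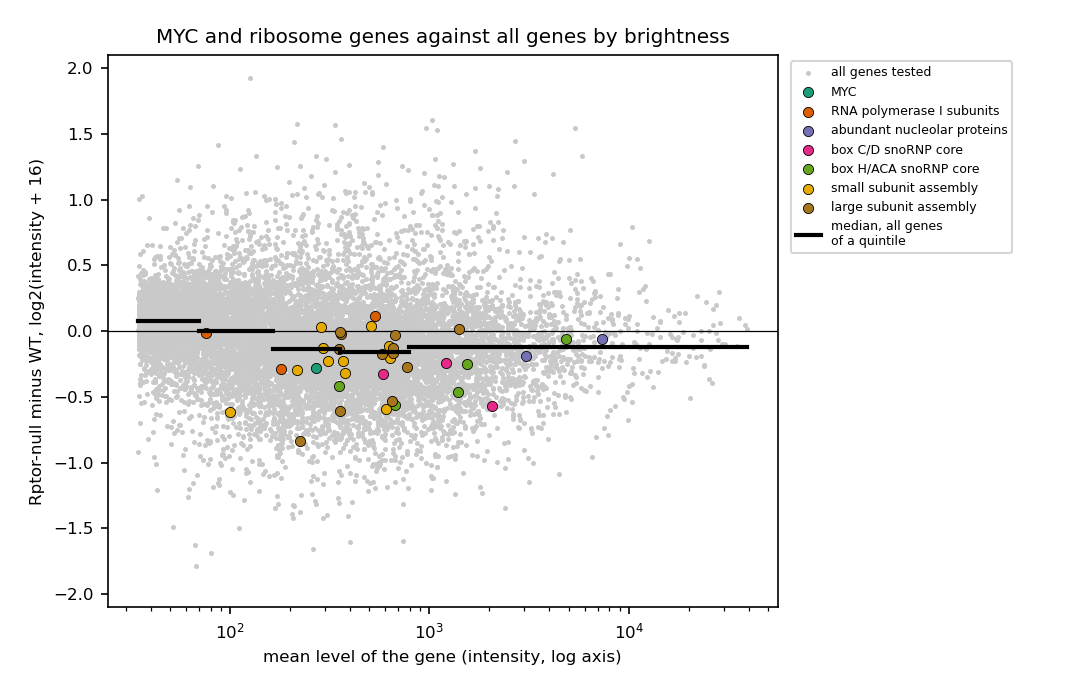
Difference of Rptor-null from WT on the log2 scale against mean level for all 12725 tested genes (grey) and for the 37 genes (coloured), with the median of each quintile of all genes as a black line and 3 genes outside the axis not shown. The 37 genes lie mostly in the 3 brighter quintiles and mostly below 0.

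The scaling of the arrays moved these values. Under quantile normalization 2 of the 37 genes, Fbl and Nop16, were called lower, which is 5.41% beside 5.48% of all genes. WT was above both pools for 21 genes (56.8%, beside 41.0% of all genes). Over all genes that scaling turned the split of 1409 lower and 500 higher into 697 and 524. With cyclic loess the split was 1181 and 916. There 7 of the 37 genes were lower (18.9%, beside 9.28% of all genes), and the median of the 37 was -0.10, beside -0.006 over all genes. Median centring gave 1594 and 877, with 8 of the 37 genes lower (21.6%, beside 12.5% of all genes).

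The wider pathway was read from 7 lists that share no gene with the 37. Of their 155 genes 152 were measured, and 34 were lower (22.4%), 1 was higher and 117 did not pass. At an unadjusted limma p under 0.05, a threshold not counted over all genes, 1 was higher. At the adjusted threshold, 11.1% of all tested genes were called lower. The median difference over the 152 was -0.25, and WT was above both pools for 116 of them (76.3%), beside 48.7% of all genes. These genes are bright as well: from the dimmest to the brightest quintile they numbered 4, 14, 49, 44 and 41, of which 0, 1, 9, 10 and 14 were lower. All genes of the 3 brighter quintiles were lower in 10.3%, 16.9% and 22.0% of cases.

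The medians of the lists depended on the scaling. Under quantile normalization and cyclic loess, the median given below for other large subunit factors shrank to -0.08 in both, and that of other small subunit factors to -0.17 in both. The median of the MYC network turned to 0.015 and 0.023. Those of the other 4 lists were between -0.21 and -0.35. The median of all genes was -0.008 under quantile normalization and -0.006 with cyclic loess.

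The MYC network holds the partners and rivals of MYC, such as the MXD repressors and the MLX factor. None of its 17 measured genes passed in limma. At an unadjusted limma p under 0.05, a threshold not counted over all genes, 3 were lower and 0 higher. The median was -0.06, a sign that both of these scalings turned. The genes with the largest difference held by both pools were Mxd4, with 978 in WT and 686 and 783 in Rptor-null (adjusted p = 0.0632), and Ruvbl2, an ATPase that works with MYC and in snoRNP assembly, with 363 in WT and 269 and 248 (adjusted p = 0.0643). Its partner Ruvbl1 had 260.4 in WT and 206 in both, and Mlx had 440.4 against 358 and 344. Another kept probe set differed by -1.22 for Mxd4 and by -1.42 for Mlx, beside -0.41 and -0.32 on the brightest ones. These 4 genes were picked for lying on 1 side of WT in both pools, so their lack of overlap follows from that choice. Over the whole list WT lay above both pools for 10 of the 17 genes, beside 48.7% of all genes. Others went the other way in both pools, among them Mxd1 (282 in WT against 363 and 334) and Mnt (787 against 921 and 935).

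Other known MYC targets, outside ribosome assembly, fell in 7 of 19 cases with a median of -0.40. Eif4e, the protein that binds the mRNA cap, fell from 931 in WT to 389.9 and 411 in Rptor-null. On this brightest probe set the decrease was 2.28-fold (limma adjusted p = 0.00382), and its 3 kept probe sets ran from -1.19 to -0.33. Ldha, lactate dehydrogenase, fell from 3260.3 to 2382 and 2141 (adjusted p = 0.0152), and Eif5a, a translation elongation factor, from 11454 to 8151 and 8434 (adjusted p = 0.0106). Pcna, the clamp of DNA replication, fell from 9082 to 5584 and 4809 (adjusted p = 0.00503). It is also one of the cycling markers given below.

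Other genes of the RNA polymerase I machinery fell in 4 of 12 cases, with a median of -0.27. The 4 were Znrd1, a small subunit of the enzyme, with 1311 in WT and 782 and 781 in Rptor-null, Polr1d, a subunit shared with RNA polymerase III, with 3992 against 2800.4 and 2827, and the promoter factors Taf1b and Taf1d. Their limma adjusted p-values ran from 0.00632 for Znrd1 to 0.0279 for Taf1d. Taf1b had 233 in WT and 143 and 122 in Rptor-null, and Taf1d had 610.0 against 403 and 429.9.

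Of 37 other small subunit factors 9 fell, with a median of -0.29. Utp11, a processome protein, fell from 1114 in WT to 693 and 587 in Rptor-null, 1.73-fold. Pno1, the partner of Nob1, fell from 439.7 to 240.3 and 261, while Nob1 itself did not pass. Tsr3, which modifies 18S RNA, fell from 314 to 165 and 189. Utp6 fell from 409 to 214 and 260.1. Each of the 4 was between 1.69-fold and 1.73-fold lower.

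Of 45 other large subunit factors 4 fell and 1 rose, with a median of -0.19. Eif6, which keeps the new 60S subunit from joining too early, fell from 1111 in WT to 649.6 and 604 in Rptor-null, 1.75-fold (limma adjusted p = 0.00604). Wdr74 fell from 463 to 285 and 262, and Wdr18 from 197 to 114 and 129.8. Rpf2, which joins Rrs1 in building the 5S particle into the large subunit, was the 1 gene that rose, from 749 in WT to 1741 and 1528 in Rptor-null (difference 1.11, adjusted p = 0.00383). Its probe sets went from -0.58 to 1.11, so another of them gave lower values in Rptor-null, and it was not called where all its probe sets were averaged.

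SnoRNP assembly factors fell in 3 of 7 cases, with a median of -0.43. These were Znhit3 (312 in WT and 206 and 178 in Rptor-null), Znhit6 (401 against 273 and 280.4) and Pih1d1 (549.6 against 395 and 388), which help to put together the box C/D particle that holds Fbl. Shq1, the chaperone of dyskerin, had 72.8 in WT and 49.6 and 50.5 in Rptor-null and did not pass (adjusted p = 0.106).

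The RNA exosome, which trims the ends of ribosomal RNA precursors, and related nucleases fell in 7 of 15 cases, with a median of -0.43. Mphosph6, an exosome partner in 5.8S processing, fell from 586 in WT to 251 and 289 in Rptor-null, 2.11-fold (limma adjusted p = 0.00534). The exosome subunits Exosc8 (1782 against 980.4 and 855) and Exosc3 (507 against 261 and 272) fell 1.93-fold and 1.85-fold, and Exosc4 (263 against 131 and 159) 1.74-fold. In all 4 genes both pools lay under WT, which follows from how they were picked. Over the whole list WT lay above both pools for 14 of the 15 genes, beside 48.7% of all genes.

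Probe sets also disagreed for some of the named pathway genes that fell. At least 1 other probe set was higher in Rptor-null on average for Wdr18 (up to 0.40 on the log2 scale), Eif6 (0.23), Utp11 (0.14), Exosc8 (0.12), Taf1d (0.07), Pih1d1 (0.03) and Tsr3 (0.01). For these genes, as for Rpf2, the direction rests on the brightest probe set. For others the probe sets agreed in direction and not in size. They ran from -1.19 to -0.33 for Eif4e, from -0.80 to -0.16 for Exosc4 and from -0.75 to -0.08 for Utp6.

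**Figure D4:**
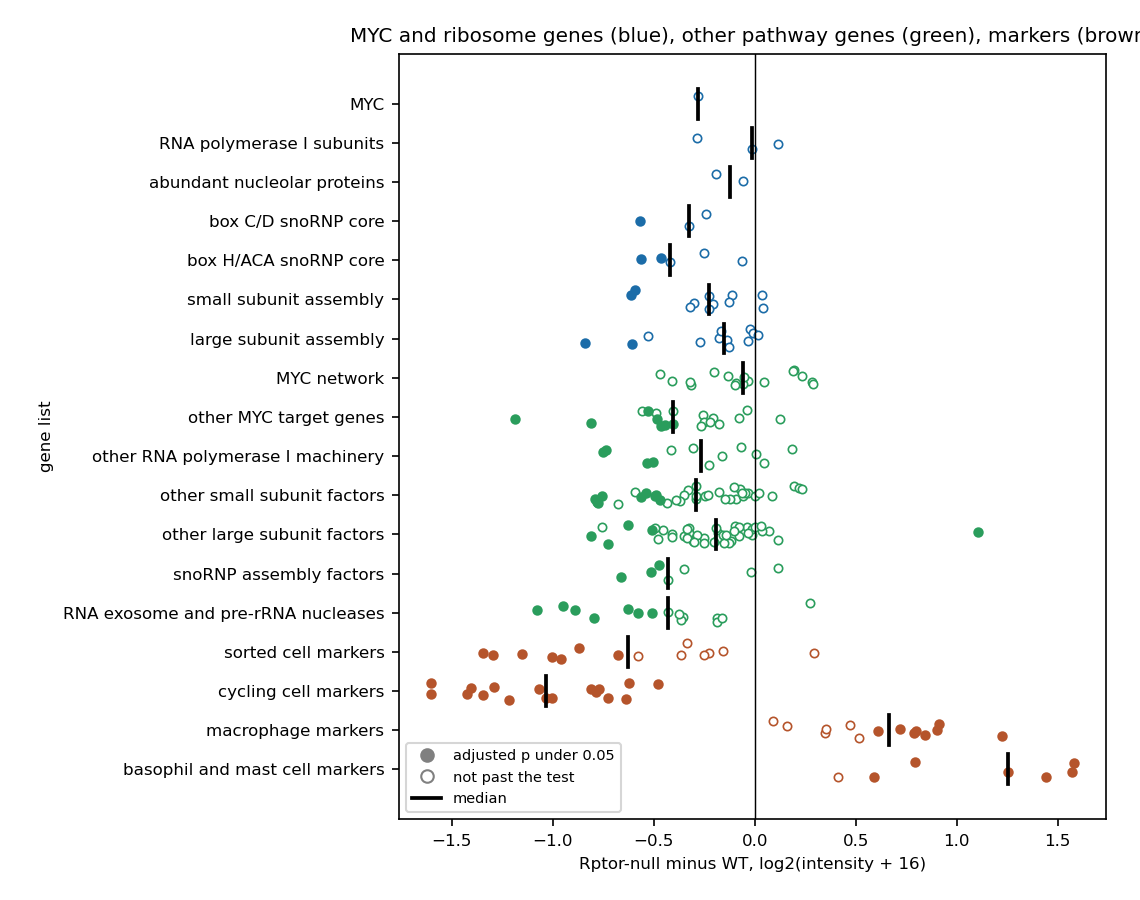
Difference of Rptor-null from WT on the log2 scale for each gene of the role groups (blue), the 7 pathway lists (green) and 4 marker lists (brown), with called genes filled, uncalled genes open and each list's median as a black bar. All 17 cycling markers were lower, and 0 of 17 genes of the MYC network passed.

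The labelled gene and cells were checked on the same arrays. Rptor was read by 2 kept probe sets. The brighter one gave 365 in WT and 353 and 412 in Rptor-null (adjusted p = 0.824), and the other, close to the filter, gave 30.8 in WT and 48.1 and 36.4 in Rptor-null (difference 0.31, adjusted p = 0.347 over every probe set). Neither was lower on average in Rptor-null. Whether they lie in the deleted part is not known here, so they do not check the labels. Foxp3, the defining factor of regulatory T cells, had 752 in WT and 587 and 423 in Rptor-null (adjusted p = 0.0789). Markers of the sorted cells fell in 7 of 14 cases. Their summed intensity was 52820 in WT and 35033 and 33100.3 in Rptor-null, a sum that bright probe sets such as those of Cd3d and Cd3g weigh most in. Of the genes for the sorting antibodies, Cxcr5 (713 against 374 and 392) and Tnfrsf18, which encodes GITR (3837 against 1549 and 1453), fell. Cd4 (696 against 579 and 587) and Il2ra, which encodes CD25 (464 against 366 and 348), did not pass. Cd44 went the other way, with 3540 in WT and 4383 and 4306 in Rptor-null, and missed the threshold (adjusted p = 0.0545). These 3 genes were added to those named after their values were seen.

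Markers of other cell states and types moved with the genotype as well. Cycling markers were lower in 17 of 17 cases with a median of -1.03, and their sum went from 23234 in WT to 13173 and 11883 in Rptor-null. Macrophage markers were higher in 8 of 14, with sums of 34047 in WT and 44687 and 51380 in Rptor-null, and Csf1r, their defining receptor, was at 7911 against 12569 and 14904. Basophil and mast cell markers were higher in 6 of 7, with sums of 1349 against 2628 and 3104. Neutrophil markers passed in 0 of 7. At an unadjusted limma p under 0.05, a threshold not counted over all genes, 3 of them were lower and 0 higher. Of 6 B cell markers, 1 was lower. The part of these shifts in the values of the 37 genes was not tested.

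RNA quality and spiked controls also went with the genotype. For Gapdh the 3′ probe set was 1.11 times as bright as the 5′ one in WT, and 1.94 and 2.58 times in Rptor-null. For beta-actin this ratio was 1.40 against 2.65 and 2.87. All probe sets of spiked control RNAs, 24 of one kind and 18 of another, were brighter in both Rptor-null arrays. Their part in the values of the 37 genes was not tested, and the arrays were compared as the authors scaled them.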

How the data were processed

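RNA of sorted Tfr cells was labelled with biotin from 100 ng of total RNA and read on 3 single-colour Affymetrix arrays, 1 WT and 2 Rptor-null, per the labels. The deposited values are linear intensities, 1 for each probe set. MAS5 is the tool named in the submitters' processing notes, and its scaling target is not given in the sources used here. Arrays give no read depth, so precision is limited by their number. Array medians were 52.8, 55.0 and 54.9, and correlations of log2 values were 0.994 between the Rptor-null arrays and 0.980 and 0.979 between WT and each.

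Probe sets were named from the platform annotation (34945 with 1 gene, 932 with several, 9160 with none, beside 64 controls). Probe sets with several symbols named no gene. Values were converted to log2(intensity + 16). Probe sets at or under the 40th percentile (34.8 intensity units) were left out, which kept 27022, and the brightest stood for each of 12725 genes. limma 3.58.1 in R 4.3.3 (lmFit, eBayes with a variance trend, 6.46 prior degrees of freedom) gave the differences, two-sided, with Benjamini-Hochberg adjustment over all genes or all probe sets and a threshold of 0.05. The script was tested on simulated data.

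The 38 genes and all lists were chosen with earlier results of these data known, so their direction is not independent evidence. From each pathway list up to 4 genes were named, those with the largest difference held by both Rptor-null arrays. The p-values measure only the spread between these pools. Alternatives were pseudocounts of 4 and 64, no filter or a 60th percentile filter, quantile, median and cyclic loess scaling, averaged probe sets, no cross-matching probe sets, no variance trend, a robust prior and leaving out each Rptor-null array. Scalings of the counts of arrays on 1 side and of the fit of every probe set were added after seeing the data.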

Additional observations from a re-analysis of the deposited data

Results flagged for a closer look

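Control probe sets for RNAs spiked into the samples, which enter none of the comparisons, were brighter on the Rptor-null arrays than on the WT array. For the bacterial transcripts dap, lys, phe and thr, 24 of 24 probe sets were higher in both Rptor-null arrays, with a median ratio to WT of 7.85 for replicate 1 and 5.07 for replicate 2, and of 6.50 for their mean. For bioB, bioC, bioD and cre, 18 of 18 were higher in both, with median ratios of 4.83 and 3.50, and of 4.16 for the mean. The labels do not say when these RNAs were added. They were not used to scale the arrays.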

How the results depend on the processing

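No paired analysis was possible because the WT group is 1 array and shares no replicate pair with the Rptor-null group. The 7 called genes stayed lower than WT under all 11 alternatives with a test. Nop16 passed in each (adjusted p from 0.00187 to 0.0372). Fbl lost its call without the variance trend (0.0549) and Gar1 under quantile normalization (0.0555). Imp4 and Wdr12 lost theirs under quantile normalization and with averaged probe sets, Nhp2 under quantile normalization and without the variance trend, and Rrp12 under quantile normalization and without the filter. Under quantile normalization 2 of the 37 genes were called (5.41%, beside 5.48% of all genes called lower), with 5 of their 73 probe sets and 16 of the pathway genes. Without the variance trend 18 pathway genes were called. Pathway genes called higher numbered 3 with cyclic loess and 0 with averaged probe sets. The cause was not tested for any change given here.

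Genes at least 1.5-fold lower in both Rptor-null arrays, 2 as reported, numbered 4 with a pseudocount of 4, 1 with a pseudocount of 64, 1 under quantile normalization, 1 under median centring, 5 without cross-matching probe sets and 0 at 2-fold; with 1 Rptor-null array left out they numbered 4 to 5, where only 1 array has to pass and no residual degree of freedom is left for a test. The median of the 37 genes was -0.23 as reported, -0.20 with a pseudocount of 64 and -0.25 without cross-matching probe sets. It was -0.12 under quantile normalization, -0.17 under median centring and -0.10 with cyclic loess. The median of all genes moved as well, from -0.06 as reported to -0.008, -0.006 and -0.006 under these 3 scalings. With 1 array left out, the median of the 37 genes was -0.23 to -0.20.

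Uncalled genes near 0 changed sign under some settings. Under quantile normalization, median centring and cyclic loess, Nop2 moved to 0.083, 0.029 and 0.089, Rrp1b to 0.10, 0.044 and 0.10, and Ddx21 to 0.087, 0.020 and 0.10. Under quantile normalization and cyclic loess, Npm1 moved to 0.028 and 0.040, Nop10 to 0.0017 and 0.048, and Wdr75 to 0.0050 and 0.018. Polr1b moved to 0.041 under median centring and Gnl3 to 0.0066 with cyclic loess. With averaged probe sets, Polr1c moved to -0.33, Noc4l to -0.31, Mybbp1a to -0.22 and Wdr75 to 0.011. Without cross-matching probe sets, Polr1c moved to -0.77, now called lower, and Noc4l to -0.44. With 1 WT array, its own spread was not measured, so leaving it out gives no value.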
